A study of Mus musculus with 6 samples.

Results

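Lymphocyte recirculation and activation at the cell surface was followed through 9 genes: Ccr7, S1pr1, S1pr4, Cd44, Cd69, Itgb1, Itgal, Pecam1 and Ly6c1. Members were the probe sets that the platform annotation gives exactly 1 of these symbols, 114 of the 269751 probe sets of the array, and all 9 genes were among the 13891 of 23152 named genes that passed the filter on low values. The cells were regulatory T cells (Tregs), CD4+ CD25-high lymphocytes that hold immune reactions in check, sorted from the spleens of untreated male mice aged 45 weeks. 3 mice were DJ-1-/- (KO), which lack the protein encoded by Park7, and 3 were DJ-1+/+ littermates (WT), with 1 Affymetrix Mouse Gene 2.0 ST array per mouse. The labels name no strain, and no tissue to which the knockout is restricted. Values are log2(intensity + 16) of the deposited intensities, and a gene's value on an array is the median of its probe sets there.

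T cells circulate between blood and lymphoid tissue. CCR7, a chemokine receptor, draws them into the T cell zones, and the sphingosine 1-phosphate receptor S1PR1 guides them out again. On activation CD69 binds S1PR1 and takes it off the surface, which holds the cell in the tissue, while CD44 and the beta 1 integrins are carried at higher levels by cells that have met antigen.

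Every KO array lay below every WT array for Park7, from 5.71 to 6.06 in KO against 9.27 to 9.70 in WT. Median intensities of the arrays spanned 88.6 (KO replicate 1) to 100.2 (WT replicate 2). KO replicate 1 also stood lowest in its mean correlation to the rest (0.951, the others 0.957 to 0.964). Along the first principal component, the axis of most variation between arrays, it lay at 238 and the others between -104 and -13.6. The 6 Treg markers (Foxp3, Il2ra, Ctla4, Ikzf2, Cd4 and Cd3e) had means of 11.20 to 12.78, above the filter floor of 5.90. All 8 endothelial markers, 4 of 7 macrophage and monocyte, 3 of 6 platelet, 3 of 6 measured B cell and 3 of 5 neutrophil markers had means under that floor, while 4 of 4 measured NK and 2 of 2 CD8 T cell markers lay above it. These are bulk RNA values, so fewer cells with a transcript and less of it per cell cannot be told apart.

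No member gene passed an adjusted p of 0.05 in limma. By their gene values Ccr7, S1pr1 and S1pr4, the circulation receptors, differed by 0.02, -0.03 and 0.04, but the S1pr1 value rests on 1 of its 5 probe sets and was 0.40 with the mean of probe sets. The furthest apart was Itgb1, the beta 1 integrin chain, with a difference (KO minus WT) of -0.67 log2 units. The probe sets of Itgb1 were mostly negative, while those of Pecam1 and S1pr1 were mostly positive. Of the 9 members 0 passed (background 0.274% of tested genes) and 1 reached an unadjusted p of 0.05 (background 10.7%). With the mean of probe sets 0 passed and 3 reached that unadjusted p, and the background under that summary was not counted. An unmoderated test also passed 0, but in it Park7, at -3.57, did not pass either (adjusted p = 0.0905). That test therefore cannot show that smaller differences are absent. The 1 member whose groups did not overlap was Itgb1, where 17.4% of all tested genes showed no overlap. The median difference over the 9 genes was -0.00, beside -0.05 over all tested genes, with 5 of 9 negative against 59.7%. With 3 arrays per group the smallest two-sided p of an exact permutation test is 0.10, the value Itgb1 reached.

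**Figure D1:**
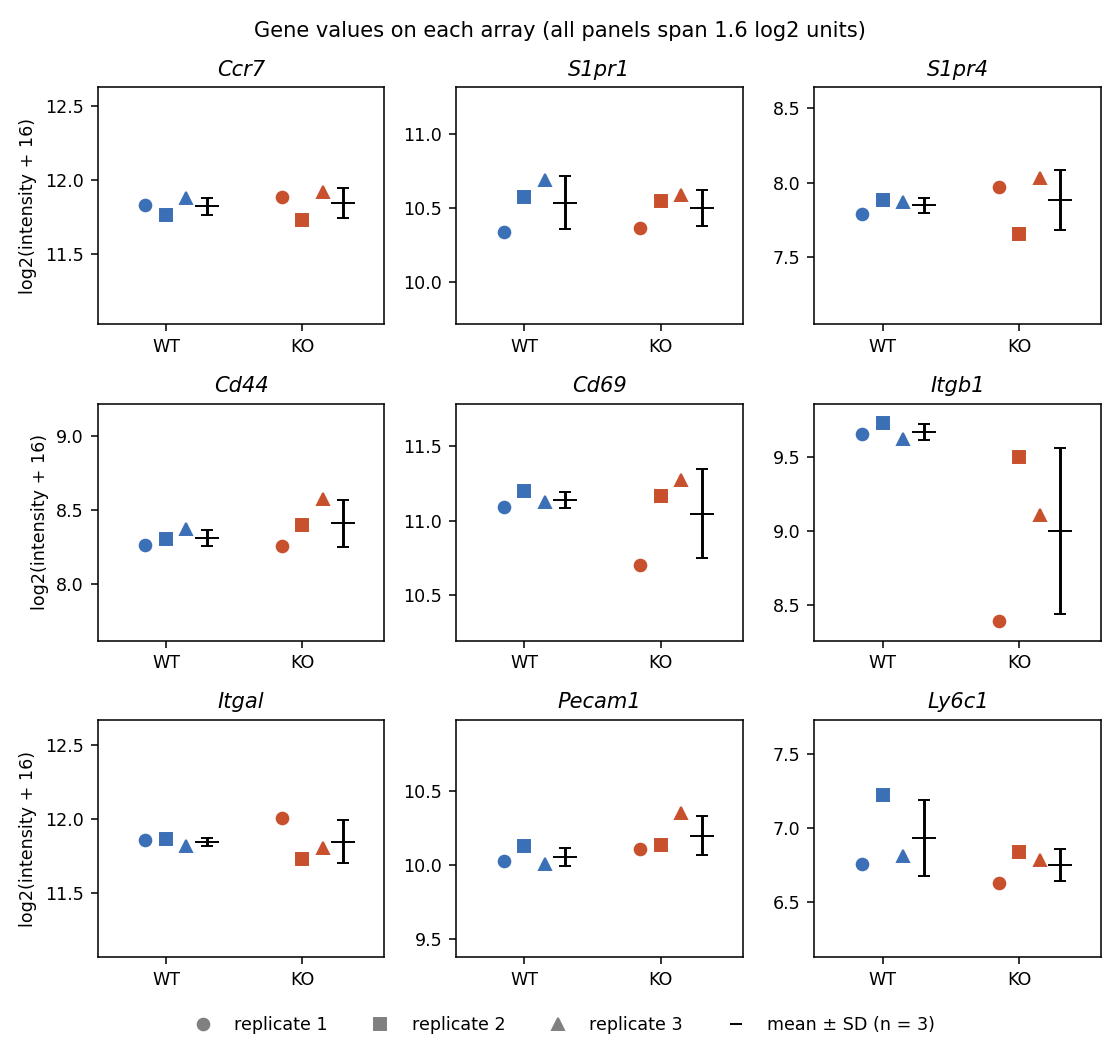
Values of the 9 genes on each array as log2(intensity + 16), with WT in blue and KO in orange; marker shapes are replicate numbers and black bars the mean ± SD of 3 arrays. Every panel spans the same range; Itgb1 is the gene whose KO values (8.39 to 9.50) all lie below the WT values (9.62 to 9.73), and KO replicate 1 is the lowest array for Itgb1, Cd69, Ly6c1 and, narrowly, Cd44.

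Of the 114 member probe sets, 58 had negative and 56 positive differences, against 53% negative and 47% positive over the array. None passed when all 269751 were tested one by one in limma (0 of 114; background 0.00111%; lowest adjusted p = 0.444), and the unmoderated test also passed 0. At an unadjusted p of 0.05 there were 14, 12.3% of the members' probe sets against a background of 7.59%. Groups did not overlap in 14 probe sets lower in KO (12.3%; background 7.64%) and 13 higher (11.4%; background 6.17%). Of the 14 lower ones 7 belonged to Itgb1, and of the 13 higher ones 9 belonged to Pecam1. Probe sets of a gene are read from the same 6 RNA samples and are not replicates.

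**Figure D2:**
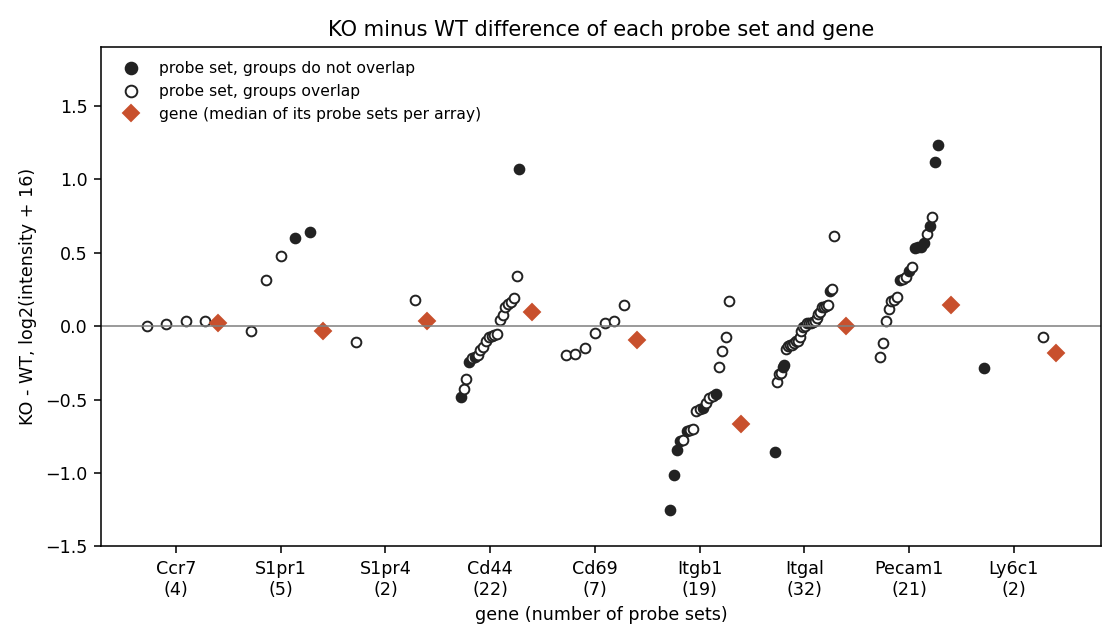
KO minus WT difference of each of the 114 probe sets on the log2(intensity + 16) scale, by gene, sorted within the gene; filled circles are probe sets whose groups do not overlap, and diamonds the difference of the gene value. Itgb1 lies below 0 in 18 of 19 probe sets and Pecam1 above 0 in 19 of 21, while the Pecam1 and S1pr1 diamonds sit below most of their own probe sets.

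Ccr7, the receptor for entry into lymph nodes and T cell zones, had WT values of 11.83, 11.76 and 11.88 and KO values of 11.89, 11.73 and 11.92, given in the order of the replicate numbers here and for every gene after it. The groups overlapped throughout and the spread within each was small. Its difference was 0.02 (SE 0.13, 95% interval -0.27 to 0.32, adjusted p = 0.960), and it turned to -0.01 without WT replicate 2 or KO replicate 3. All 4 of its probe sets lay between 0.00 and 0.04.

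S1pr1, the receptor that leads lymphocytes out along sphingosine 1-phosphate, was at 10.34, 10.57 and 10.69 in WT and at 10.36, 10.55 and 10.59 in KO. By this value the groups overlapped almost fully, with a difference of -0.03 (SE 0.15, 95% interval -0.37 to 0.30, adjusted p = 0.951). On all 6 arrays that value was the reading of 1 probe set, 17409622, which is the middle of the 5 and the 1 with a negative difference. The other 4 differed by 0.31 to 0.64. Probe set 17409626, with the smallest p, read 9.27, 9.31 and 9.11 in WT and 10.29, 9.55 and 9.79 in KO. Its KO values all lay above its WT values, KO replicate 1 highest, for a difference of 0.64 (SE 0.22, adjusted p = 0.608). Probe set 17409623, named after its values were seen, read 9.01, 9.22 and 9.53 in WT and 10.21, 9.59 and 9.75 in KO, also without overlap (0.60, adjusted p = 0.640).

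The sign for S1pr1 depended on how its 5 probe sets were combined. With the mean of probe sets the difference was 0.40 (adjusted p = 0.277). With each probe set centred on its own mean before the median was taken, a summary chosen after the data were seen, it was 0.41 (95% interval 0.07 to 0.75, adjusted p = 0.282). It also turned positive with median centring (0.00), with array weights (0.02), without WT replicate 3 (0.04) and without KO replicate 1 (0.03).

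S1pr4, a receptor for the same lipid found mainly on blood cells, had values of 7.79, 7.88 and 7.87 in WT and 7.97, 7.65 and 8.03 in KO. KO replicate 2 lay below the WT arrays and the other KO arrays above them. The difference was 0.04 (SE 0.15, 95% interval -0.29 to 0.37, adjusted p = 0.946), turning to -0.00 without KO replicate 1 and -0.04 without KO replicate 3. Its 2 probe sets pointed apart, 17243380 by 0.18 (SE 0.14, adjusted p = 0.781) and 17243381 by -0.11 (SE 0.20, adjusted p = 0.914).

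Cd69, the early activation antigen, read 11.09, 11.20 and 11.12 in WT and 10.70, 11.16 and 11.27 in KO. KO replicate 1 stood below the rest, and the other KO arrays lay among or just above the WT values. The difference was -0.09 (SE 0.17, 95% interval -0.47 to 0.29, adjusted p = 0.879) and turned to 0.08 without KO replicate 1 and to 0.03 with array weights. That array had the lowest value in 6 of the 7 Cd69 probe sets, and without it 0 of the 7 had a negative difference. Among all 114 member probe sets it was lowest in 41, and the share over all probe sets was not counted. Over all tested genes KO replicate 1 lay a median of -0.12 from the WT mean, beside -0.43 for Cd69. Probe set 17471509, with the smallest p, differed by 0.14 (SE 0.14, adjusted p = 0.821).

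Cd44, the hyaluronan receptor that is high on antigen-experienced T cells, was at 8.27, 8.30 and 8.37 in WT and 8.26, 8.40 and 8.58 in KO. The groups overlapped, and the difference was 0.10 (SE 0.14, 95% interval -0.21 to 0.41, adjusted p = 0.832), or 0.02 without KO replicate 3 and 0.17 without KO replicate 1. It took the opposite sign with the mean of probe sets (-0.03), with bright probe sets only (-0.27, adjusted p = 0.444) and with centred probe sets (-0.09). Bright here means past 6.78, the median of the mean values of all probe sets. Of its 22 probe sets 14 were negative. Split at a mean of 10, a higher cut chosen after the data were seen, all 6 probe sets above it were negative (median -0.17). Below it 8 of the 16 were negative (median -0.01).

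Among the 6 Cd44 probe sets with a mean above 10, 17388754 read 13.15, 13.26 and 13.29 in WT and 12.93, 13.11 and 13.04 in KO. Its groups did not overlap, with a difference of -0.21 (SE 0.13, adjusted p = 0.743). Probe set 17388750 likewise ran from 11.52 to 11.59 in WT and from 11.20 to 11.45 in KO (-0.24, SE 0.13, adjusted p = 0.716). Both were named after their values were seen. The probe set with the smallest p, 17388740, had a mean of 5.12, the 1 member probe set under 5.90. It read 4.26, 4.48 and 5.02 in WT and 5.56, 5.77 and 5.65 in KO, with all KO values higher. Its difference was 1.07 (SE 0.22, adjusted p = 0.510), but 2.13 with a pseudocount of 1 and 0.45 with 64, so its size is set by the offset. CD44 transcripts are spliced with variable exons; which exon each probe set reads was not analysed here.

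Itgb1 encodes the beta 1 integrin chain (CD29), which pairs with several alpha chains to bind fibronectin, laminin, collagen and VCAM-1. Its values were 9.66, 9.73 and 9.62 in WT and 8.39, 9.50 and 9.11 in KO. The WT arrays were nearly equal, the KO arrays were all lower and spread over more than a log2 unit, and KO replicate 1 was furthest down. The SD of the 3 arrays was 0.05 in WT against 0.56 in KO, and the difference of the means was -0.67 (SE 0.24, 95% interval -1.22 to -0.12) that did not pass (adjusted p = 0.369). Without KO replicate 1 it was -0.36 (adjusted p = 0.416), and over the alternatives it stayed between -0.92 and -0.36, with adjusted p from 0.150 to 0.746.

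Of the 19 Itgb1 probe sets 18 were negative and 7 had groups that did not overlap, all lower in KO (36.8% against 7.64% of all probe sets). At an unadjusted p of 0.05 there were 4 lower in KO (background 4.37%). KO replicate 1 was the lowest of the 6 arrays in 17 of the 19, and in 41 of all 114 member probe sets. KO replicates 2 and 3 each lay below the WT mean in 16, and without KO replicate 1 the difference was negative in 16. Among all 114 member probe sets these counts were 57, 53 and 59. Shares over all probe sets were not counted for them. Probe set 17507016, with the smallest p, read 7.80, 7.87 and 7.98 in WT and 6.38, 7.43 and 6.81 in KO. No KO value reached the WT values, and the difference was -1.01 (SE 0.28, adjusted p = 0.557).

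Other Itgb1 probe sets were named after their values were seen. They were the most negative and the 1 whose KO mean moved most when KO replicate 1 was left out. The large shift in the latter therefore follows from how it was picked. The most negative, 17507017, read 11.53, 11.15 and 11.19 in WT and 9.08, 10.59 and 10.44 in KO (-1.25, adjusted p = 0.607; -0.77 without KO replicate 1). Probe set 17507022 read 9.86, 9.78 and 9.68 in WT and 7.55, 9.76 and 9.67 in KO, and its difference of -0.78 became -0.05 without KO replicate 1. The first of these kept KO below WT on every array, whereas in the second KO replicates 2 and 3 lay at or near the WT range. The probe set that was not negative was 17507015, at 0.17.

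**Figure D3:**
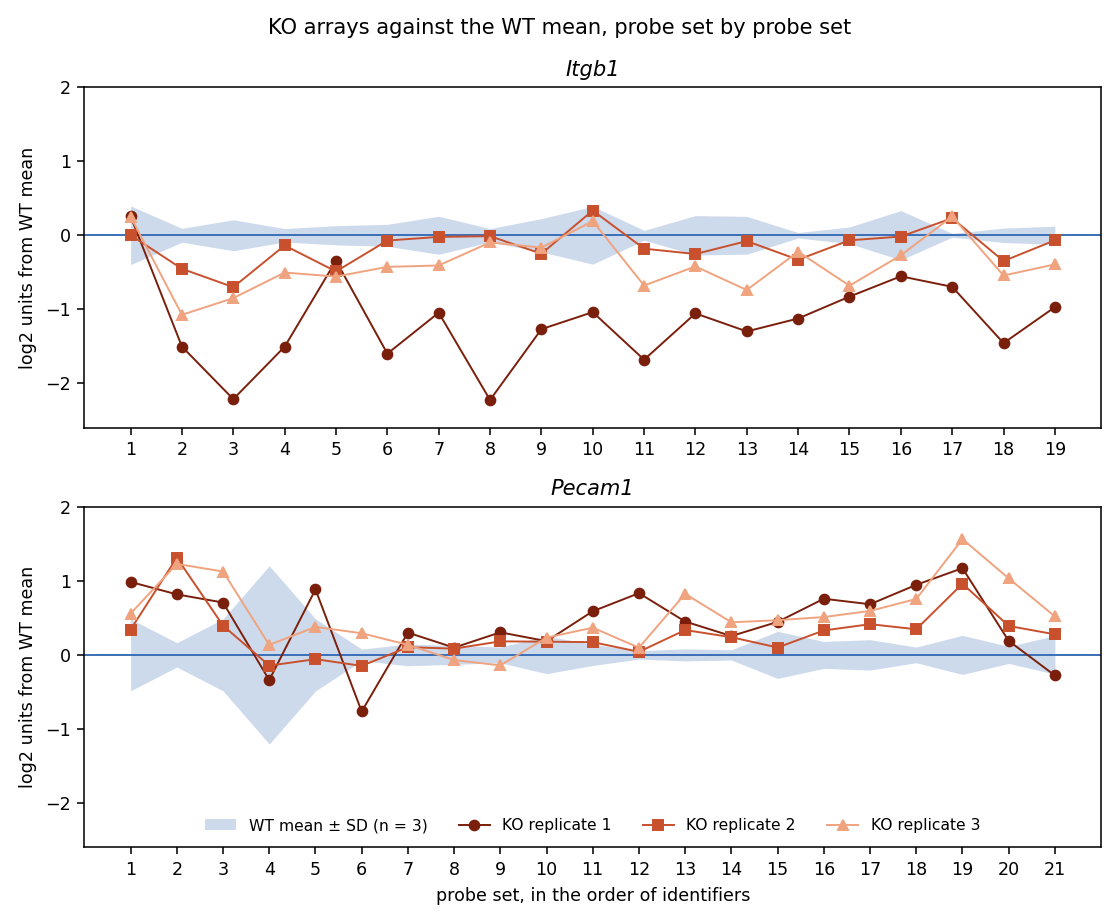
Each KO array's distance from the WT mean in log2 units for the 19 Itgb1 probe sets (top) and 21 Pecam1 probe sets (bottom), in the order of their identifiers; lines join the probe sets of 1 array and the band is the WT mean ± SD of 3 arrays. For Itgb1, KO replicate 1 is the lowest of the 6 arrays in 17 probe sets; for Pecam1 the KO arrays lie mostly above the WT mean, with KO replicate 1 below it in 3 of 21, KO replicate 2 in 3 and KO replicate 3 in 2.

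Itgal encodes the alpha chain of LFA-1 (CD11a), the integrin that binds ICAM-1 and lets T cells stop on vessel walls and on other cells. It read 11.86, 11.87 and 11.82 in WT and 12.01, 11.73 and 11.81 in KO. The WT values lay inside the range of the KO values, and the means were 11.85 ± 0.03 and 11.85 ± 0.14 (SD, n = 3 each). The difference was -0.00 (SE 0.14, 95% interval -0.31 to 0.30, adjusted p = 1.00) and lay between -0.08 and 0.06 over the alternatives. Of 32 probe sets 16 were negative and 16 positive, and groups did not overlap in 3 lower and 1 higher. Probe set 17483299, with the smallest p, read 8.76, 9.37 and 9.72 in WT and 8.19, 8.50 and 8.59 in KO, all lower (-0.86, SE 0.28, adjusted p = 0.597). Itgb2, the beta chain of LFA-1, differed by -0.05 (SE 0.13, adjusted p = 0.911), or 0.03 with centred probe sets.

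Pecam1 encodes CD31, an adhesion and inhibitory receptor found on endothelium, platelets and leukocytes. Its values were 10.03, 10.13 and 10.01 in WT and 10.11, 10.13 and 10.35 in KO. KO replicate 3 was highest and KO replicate 1 lay within the WT range, for means of 10.06 ± 0.06 and 10.20 ± 0.13 (SD, n = 3 each). The difference was 0.14 (SE 0.14, 95% interval -0.16 to 0.45, adjusted p = 0.742), and 0.07 without KO replicate 3. Of 21 probe sets 19 were positive, with a median difference of 0.38, and 9 had groups that did not overlap, all higher in KO (42.9% against 6.17% of all probe sets). 6 reached an unadjusted p of 0.05 higher in KO (background 3.23%) and 0 passed after adjustment.

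Probe set 17270939 of Pecam1, with the smallest p of all member probe sets, read 7.36, 7.18 and 7.51 in WT and 8.17, 8.66 and 8.58 in KO. All KO values were higher, and the difference was 1.12 (SE 0.19, adjusted p = 0.444). Probe set 17270957, named after its values were seen, read 7.30, 7.82 and 7.48 in WT and 8.70, 8.49 and 9.10 in KO, again without overlap (1.23, SE 0.22, adjusted p = 0.472). With each probe set centred on its own mean, Pecam1 differed by 0.38 (SE 0.11, 95% interval 0.13 to 0.63, adjusted p = 0.193). The KO arrays, at 0.26, 0.06 and 0.28, then all lay above the WT arrays, at -0.29, -0.21 and -0.05, and under this summary 20% of all tested genes showed no overlap. The mean of probe sets gave 0.41 (adjusted p = 0.190).

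Of the other cells that carry CD31, all 8 endothelial markers lay under the floor, with a summed intensity of 152 to 162 in WT and 126 to 146 in KO. The platelet markers summed to 311 to 366 in WT and 295 to 345 in KO, and the macrophage and monocyte markers to 444 to 754 and 392 to 486. The neutrophil markers, 3 of 5 under the floor, summed to 239 to 241 in WT and 253 to 291 in KO. Among other leukocytes, the B cell markers summed to 980 to 1353 in WT and 989 to 1144 in KO. The NK markers summed to 592 to 713 and 547 to 663, and the CD8 T cell markers to 458 to 505 and 361 to 436. The part of these cell types in the Pecam1 values was not tested.

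Ly6c1 encodes a small lipid-anchored surface protein of the Ly6 family, carried by subsets of T cells and by endothelium and detected together with its relative Ly6c2 as Ly6C. The genes are close relatives, so the signal of each on an array is uncertain. RefSeq windows around their start sites (250 bases before to 50 after, GRCm38.p6) are shown to let that likeness be seen; 4 of the 9 members had such a window. Ly6c1 and Ly6c2 each had 2 windows, and the pair with the most identical bases is shown. Aligned, the windows of that pair were identical at 208 of 266 paired bases (78.2%). Capitals mark the 3 runs of at least 12 bases that both windows hold exactly; both are on the minus strand and are printed 5′ to 3′. The windows are not probe sequences and lie mostly before the start sites, so they do not show what the probe sets read.
Ly6c1 chr15:75048788-75049087: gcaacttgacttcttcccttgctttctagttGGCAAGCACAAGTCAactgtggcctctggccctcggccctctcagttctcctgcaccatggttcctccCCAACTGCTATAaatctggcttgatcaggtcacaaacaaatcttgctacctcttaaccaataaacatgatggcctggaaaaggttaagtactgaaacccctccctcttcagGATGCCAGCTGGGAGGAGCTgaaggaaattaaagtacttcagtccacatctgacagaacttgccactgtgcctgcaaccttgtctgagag
Ly6c2 chr15:75111922-75112221: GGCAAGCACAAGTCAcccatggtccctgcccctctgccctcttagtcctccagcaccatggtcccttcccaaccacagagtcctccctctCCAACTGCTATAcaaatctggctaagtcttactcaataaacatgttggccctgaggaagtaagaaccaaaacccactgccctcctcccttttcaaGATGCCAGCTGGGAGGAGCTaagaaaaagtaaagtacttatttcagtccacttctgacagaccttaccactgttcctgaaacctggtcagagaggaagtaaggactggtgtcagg

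On the arrays Ly6c1 read 6.76, 7.23 and 6.81 in WT and 6.63, 6.84 and 6.78 in KO. The groups overlapped, WT replicate 2 stood above the rest and KO replicate 1 was lowest. The difference was -0.18 (SE 0.16, 95% interval -0.54 to 0.18, adjusted p = 0.721), and -0.03 without WT replicate 2. Of its 2 probe sets 17318090 differed by -0.29 (SE 0.19, adjusted p = 0.752), with KO values of 6.66 to 6.72 just below WT values of 6.75 to 7.32, and 17318095 by -0.08. Ly6c2 read 7.66, 7.80 and 7.05 in WT and 7.59, 7.94 and 7.55 in KO, a difference of 0.19 (SE 0.21, adjusted p = 0.781) that turned to -0.04 without WT replicate 3.

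Other genes of lymphocyte trafficking and activation were read beside the members. Of 68 listed genes 63 had probe sets with that single symbol and 60 were tested; Sphk1, Itga1 and Tln2 lay under the floor, and the listed genes with no such probe set were not analysed here. In limma 1 of the 60 passed lower in KO (background 0.266%) and 0 higher (background 0.0072%). At an unadjusted p of 0.05 there were 6 lower and 3 higher (backgrounds 7.67% and 2.99%). The unmoderated test, in which Park7 did not pass either, passed 0. In 6 genes the groups did not overlap with KO lower and in 7 with KO higher (backgrounds 11.3% and 6.1%). The median difference was -0.01, with 31 of 60 negative.

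The gene that passed was Vcam1, the ligand of the alpha 4 beta 1 integrin, made by stromal cells and macrophages. It read 7.02, 7.51 and 6.96 in WT and 6.07, 5.86 and 6.10 in KO, so KO lay close to the floor of 5.90 (-1.15, SE 0.18, adjusted p = 0.0343). It did not pass in any of the 6 fits that left out 1 array (adjusted p from 0.0521 to 0.146). With a pseudocount of 64 (0.0536) and in the unmoderated test (0.339) it did not pass either. It passed with a pseudocount of 1 (0.0414), without the filter (0.0496), with quantile normalization (0.0231) and with median centring (0.0225). Vcam1 also passed with trend and robust variances (0.0273), array weights (0.00747) and the replicate block (0.0395). The difference was smaller with the mean of probe sets (-0.66, adjusted p = 0.0390) and with centred probe sets (-0.70, adjusted p = 0.0432). All 7 macrophage and monocyte markers had negative differences, beside 59.7% of all tested genes. Of the 7, 4 lay under the floor and 0 passed. Their sums, given for Pecam1, overlapped between the groups, and their part in the Vcam1 value was not tested. Itgae, the alpha chain that pairs with beta 7 to bind E-cadherin, read 9.82, 9.75 and 9.70 in WT and 8.17, 8.44 and 9.04 in KO. It differed by -1.21 (SE 0.21) with an adjusted p of 0.0554. It passed without KO replicate 3 (0.0222), with the mean of probe sets (0.0128) and with a pseudocount of 64 (0.0399). It also passed with quantile normalization (0.0347), median centring (0.027), trend and robust variances (0.0352), array weights (0.0271) and the replicate block (0.0436). Adjusted p was 0.0905 with a pseudocount of 1, 0.0854 without the filter, 0.0598 with the 60th percentile filter and 0.0669 with bright probe sets. It did not pass in the other 5 fits that left out 1 array (0.0703 to 0.279) or in the unmoderated test (0.402).

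Partners and regulators of the members did not pass. Itga4, which joins beta 1 to form the receptor for VCAM-1, read 11.04, 11.01 and 11.07 in WT and 10.33, 11.10 and 11.06 in KO. As for Itgb1 and Cd69 the low array was KO replicate 1, and -0.21 (SE 0.20, adjusted p = 0.748) became 0.04 without it. Klf2, the transcription factor that drives S1pr1, read 9.38, 9.36 and 9.82 in WT and 9.98, 9.71 and 9.92 in KO. The groups overlapped and the difference was 0.35 (SE 0.17, 95% interval -0.02 to 0.72, adjusted p = 0.501), positive in each of the 20 alternatives. Cxcr4, the receptor for CXCL12, differed by 0.00 (SE 0.13, adjusted p = 0.997), and by -0.10 with the mean of probe sets.

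The others with the smallest p in this list were the G protein subunit Gnaq (-0.63, adjusted p = 0.257), the LFA-1 ligand Icam1 (-0.47, 0.344), the LY6 relative Ly6a, which encodes Sca-1 (-0.54, 0.384), the beta-arrestin Arrb1, which takes receptors off the surface (0.36, 0.397), and the GTPase Rac1 (0.43, 0.444). With the mean of probe sets Gnaq was -0.23, Arrb1 0.21 and Rac1 0.06. Rac1 was also 0.25 without WT replicate 3 and -0.01 with centred probe sets, and Gnaq was -0.33 with the latter. Ly6a read 11.65, 11.72 and 10.96 in WT and 10.83, 10.92 and 10.96 in KO. WT replicate 3 of Ly6a thus lay at the KO level.

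**Figure D4:**
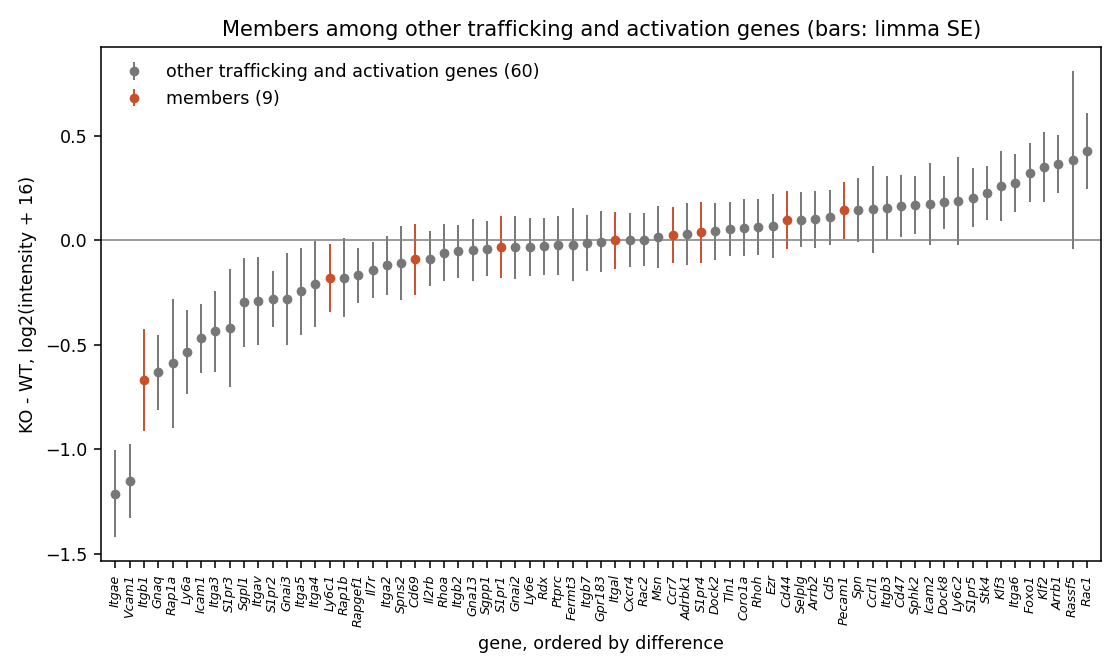
KO minus WT difference of the 9 members (orange) and the 60 tested trafficking and activation genes (grey) on the log2(intensity + 16) scale, ordered by difference; bars are the limma SE. Itgb1 (-0.67) follows Itgae (-1.21) and Vcam1 (-1.15) at the low end, while the other members lie between -0.18 and 0.14.

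Gene values of the members shared no single pattern over the 6 arrays. Pearson's r between pairs ran from -0.83 (Cd69 with Itgal) to 0.82 (Ccr7 with S1pr4), and was 0.76 for Cd69 with Itgb1, for which KO replicate 1 was the lowest array, as it was for Cd44 and Ly6c1; these are descriptions over 6 arrays. By the same measure the tested gene with the highest r was picked for each member. It was Drg1 for Itgb1 (0.998), Atp6v1h for S1pr1 (0.992), E330013P06 for Ccr7 (0.993), Il17rc for S1pr4 (0.998) and Zfp609 for Cd44 (0.993). For the others it was Rrp7a for Cd69 (0.999), Otor for Itgal (0.978), Tnpo1 for Pecam1 (0.987) and Ccdc159 for Ly6c1 (0.999). A maximum over so many genes on 6 arrays is high for any pattern, so these matches are no evidence of shared regulation.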

How the data were processed

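Per the labels, the deposited values are intensities of exon-level probe sets, summarised with PLIER in Affymetrix Expression Console 1.4; background correction, normalization between arrays and genome build are not given in the sources used here. Groups and replicate numbers came from sample titles, and each array is a separate mouse. Intensities were taken as log2(intensity + 16), which understates differences of dim probe sets. Names came from the platform annotation: 233753 probe sets had 1 symbol, 5106 several and 30892 none. Gene values were medians of probe sets, and genes with a mean under the 40th percentile (5.90) were left out. The groups were compared by limma (version 3.58.1, R 4.3.3; two-sided, Benjamini-Hochberg over all tested genes or all probe sets, threshold 0.05). Named genes were all members and the probe set with the smallest p in each, trafficking genes that passed or had the 6 smallest p, fixed partners, and per member the gene with the highest correlation. Members and lists were chosen with earlier results of these data known. Alternatives were other pseudocounts, filters, summaries, normalizations, variance models, a replicate block and leaving out each array. The number of arrays limits the precision.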

Additional observations from a re-analysis of the deposited data

How the results depend on the processing

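No member gene and no member probe set passed under any of the 20 gene or 15 probe-set alternatives run. These include the unmoderated test, in which the Park7 gene value did not pass either. Itgb1 stayed negative and Pecam1 positive in all 20, and Ly6c1 negative in the 18 that kept it. The count of trafficking genes that passed (1) was 0 with the 60th percentile filter (7 at an unadjusted p of 0.05), with bright probe sets (7) and in the unmoderated test (10), and 2 with the mean of probe sets, quantile normalization, median centring, trend and robust variances, array weights, an adjusted p of 0.10, the replicate block and centred probe sets; leaving out 1 array gave 0 to 1. Nothing in the labels says that the replicate numbers pair the mice, so the main fit had no replicate block. Deviations of same-numbered WT and KO arrays correlated at 0.15, 0.17 and 0.010. KO replicates 1 and 2 correlated best with their own number and KO replicate 3 did not, and so few arrays cannot decide on pairing. With the replicate block the count of members stayed 0 and Itgb1 had an adjusted p of 0.227.

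Signs turned as follows. The mean of probe sets gave S1pr1 0.40, Cd44 -0.028 and Cxcr4 -0.10; centred probe sets, added after the data were seen, gave S1pr1 0.41, Cd44 -0.094, Itgb2 0.031, Cxcr4 -0.014 and Rac1 -0.0070. Bright probe sets gave Cd44 -0.27 and Itgal 0.034. Median centring gave S1pr1 and its probe set 17409622 0.00081 and Itgal 0.035, quantile normalization gave Itgal 0.0043, and array weights gave S1pr1 0.024 and Cd69 0.031. With 1 array left out the ranges were -0.013 to 0.082 for Ccr7 (-0.033 to 0.095 for its probe set 17268975), -0.13 to 0.044 for S1pr1 and 17409622, -0.036 to 0.15 for S1pr4, -0.20 to 0.080 for Cd69, -0.080 to 0.059 for Itgal (-0.32 to 1.17 for its probe set 17483268), -0.34 to 0.042 for Itga4, -0.038 to 0.34 for Ly6c2 and -0.024 to 0.048 for Cxcr4. The cause of these turns was not tested. The 60th percentile filter and the restriction to bright probe sets left out Ly6c1 and Vcam1.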

Other observations

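A single reading departed from its own gene: Itgal probe set 17483268 was at 13.14 in KO replicate 1, against 10.17 to 10.71 on the other 5 arrays. Its difference was 0.62 with that array and -0.32 without it, while the Itgal gene value on the same array, 12.01, was 0.16 above the WT mean. Neither difference passed, and the reading was picked out after the values were seen.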
